A study of Mus musculus with 12 samples.

Results

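Chemokines are small secreted proteins that bind G protein-coupled receptors on leukocytes and glia and guide their migration. In the brain they are made mainly by activated microglia and astrocytes, and their genes are known targets of interferon, NF-kB and AP-1 signaling. The ligands are named by the spacing of their first cysteines, CXC or CC. Among the 20887 named mouse genes on the array, 10 chemokine ligands were chosen by symbol, with every probe whose RefSeq identifier belongs to one of them: Cxcl10, Cxcl9, Cxcl5, Cxcl1, Cxcl16, Ccl2, Ccl3, Ccl4, Ccl5 and Ccl12. They were represented by 11 of 55681 probes, with 2 probes for Cxcl9 and 1 for each of the others.

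Neurospheres, floating clusters of neural progenitor cells, were grown from the telencephalon of day 13 C57BL/6 embryos and differentiated for 7 days. Groups were wild type (WT), an untreated transgenic line (APP_WT), and the same transgenic line treated with bradykinin (BK_APP) or HOE-140 (HOE_APP), each at 1 µM on days 0, 3 and 6. The line carries a mutant APP transgene (APPswe) and a further mutant transgene that is not reported here, both directed to neurons of the central nervous system, so the genotype difference is not that of APP alone. Bradykinin is a peptide agonist of the B2 kinin receptor, and HOE-140 is an antagonist of this receptor. Both treated groups and APP_WT carried the same transgenic genotype, so no treated wild-type group entered these comparisons. APP_WT was compared with WT, and each treated group with APP_WT, which makes 3 comparisons of 4 two-color arrays each. The dyes were swapped between arrays, and the arrays are described in the methods as independent biological replicates. How many embryos each preparation pooled was not given in the sources used here.

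All values are log2 ratios of the first-named group over the second unless called levels. A level is a log2 intensity normalized between arrays, and levels of different genes were not compared because each probe has its own brightness. Between 45.2% and 60.1% of spots per channel were well above background by the scanner software's test, and 29361 probes that passed it for 1 group in 3 or more of a comparison's 4 arrays were tested. All 10 astrocyte, all 10 neuron and all 8 oligodendrocyte markers passed, as did 15 of 18 microglia markers, so transcripts of the labeled neural cells were detected together with microglial ones. The labels of both channels of HOE_APP name 1 treatment, and the direction of that comparison, taken from the first channel, the titles and the layout shared with BK_APP, is likely only. The APP_WT versus WT arrays lay on 1 slide and the 8 arrays of the treated groups on another, so levels of WT and of the treated groups were not tested against each other.

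The genes lie in clusters. In the GRCm38.p6 annotation, Cxcl5, Cxcl1, Cxcl9 and Cxcl10 are on chromosome 5, where only the start of Art3 lies between those of Cxcl9 and Cxcl10. Cxcl16, Ccl2, Ccl12, Ccl5, Ccl3 and Ccl4 are on chromosome 11, with no coding gene starting between Ccl3 and Ccl4. RefSeq promoter sequences of this build were matched for 5 of the 10 genes. They are shown because they set Cxcl10, well above background in every channel, beside its neighbor Cxcl9, which was not detected in any, and beside Cxcl1, Ccl3 and Ccl12, which lay between. Each holds the 250 bases before the annotated transcription start, 5′ to 3′ on the gene's strand. Capitals mark matches on either strand to the interferon-stimulated response element core, the NF-kB consensus, AP-1 (TGANTCA) or the TATA box (TATAAA).
The Cxcl10 sequence is chr5:92348890-92349139, minus strand.
Cxcl10: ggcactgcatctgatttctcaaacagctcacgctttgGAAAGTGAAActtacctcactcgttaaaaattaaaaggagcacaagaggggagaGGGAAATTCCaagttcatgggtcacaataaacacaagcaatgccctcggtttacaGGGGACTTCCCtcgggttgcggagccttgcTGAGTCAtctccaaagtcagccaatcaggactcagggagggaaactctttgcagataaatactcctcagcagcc
The Cxcl9 sequence is chr5:92328080-92328329, minus strand.
Cxcl9: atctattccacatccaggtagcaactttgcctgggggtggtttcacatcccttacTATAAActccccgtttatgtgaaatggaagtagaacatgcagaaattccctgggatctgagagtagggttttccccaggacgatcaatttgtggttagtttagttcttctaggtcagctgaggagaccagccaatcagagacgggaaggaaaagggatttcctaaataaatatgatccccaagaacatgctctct
The Cxcl1 sequence is chr5:90890995-90891244, plus strand.
Cxcl1: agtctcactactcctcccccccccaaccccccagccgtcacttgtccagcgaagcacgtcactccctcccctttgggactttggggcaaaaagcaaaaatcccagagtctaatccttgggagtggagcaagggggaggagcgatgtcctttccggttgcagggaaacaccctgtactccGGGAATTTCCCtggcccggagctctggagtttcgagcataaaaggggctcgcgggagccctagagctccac
The Ccl3 sequence is chr11:83649379-83649628, minus strand.
Ccl3: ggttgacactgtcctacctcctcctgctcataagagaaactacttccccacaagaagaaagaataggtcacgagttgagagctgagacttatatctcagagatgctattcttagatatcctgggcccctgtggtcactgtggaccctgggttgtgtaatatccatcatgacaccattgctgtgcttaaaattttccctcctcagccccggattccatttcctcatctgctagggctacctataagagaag
The Ccl12 sequence is chr11:82101595-82101844, plus strand.
Ccl12: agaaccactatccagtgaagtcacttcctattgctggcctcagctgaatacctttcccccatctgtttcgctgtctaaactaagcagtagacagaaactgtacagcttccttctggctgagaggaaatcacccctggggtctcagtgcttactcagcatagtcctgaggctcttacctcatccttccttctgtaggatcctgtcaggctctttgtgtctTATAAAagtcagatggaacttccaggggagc

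Cxcl10 held matches to 3 of the 4 motifs within this window. The interferon-stimulated response element matched at −213 to −204 from the start, the NF-kB consensus at −159 to −150 and in overlapping frames between −104 and −94, and AP-1 at −74 to −68. Cxcl1 held overlapping NF-kB matches between −71 and −61, Cxcl9 a TATA box match at −195 to −190, Ccl12 a TATA box match at −31 to −26, and Ccl3 none. No match of one motif overlapped a match of another. Of 32851 promoter windows of the same length, 2.98% held the interferon-stimulated response element, 7.25% the NF-kB consensus, 6.75% AP-1 and 12.4% the TATA box. A match describes these letters only and says nothing of whether a factor was bound.

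**Figure D1:**
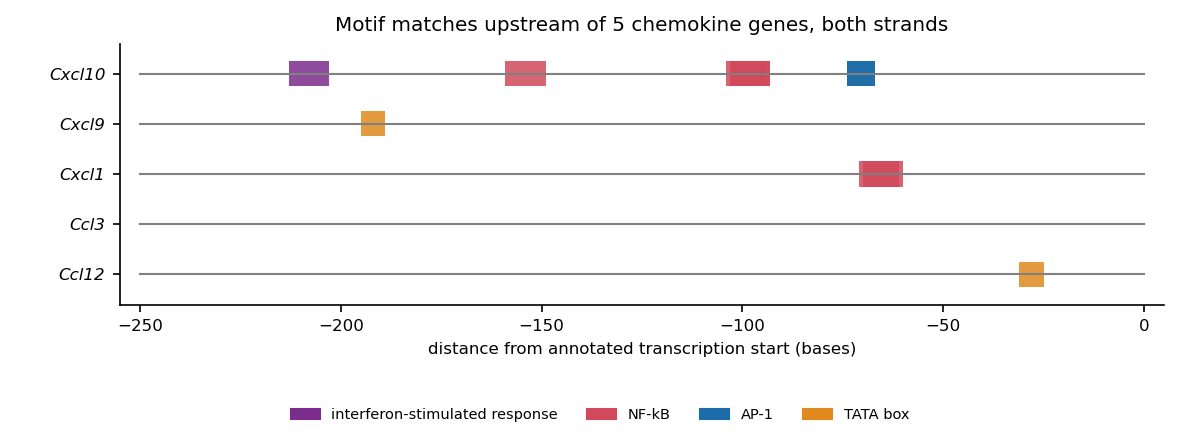
Positions of the motif matches in the 250 bases upstream of 5 chemokine genes, with the distance in bases from the annotated transcription start on the horizontal axis and a row per gene. Boxes are matches on either strand; Cxcl10 carries matches to 3 motifs, Cxcl1 to NF-kB, Cxcl9 and Ccl12 to the TATA box, and Ccl3 to none.

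The first comparison asked how ligand expression differed between transgenic and wild-type neurospheres. The 8 ligands that could be tested, all but Cxcl9 and Cxcl1, were higher in APP_WT (limma, adjusted p below 0.05), against 18.5% of all tested probes called in either direction and 11.5% called higher. Of the 5432 calls over all probes 3385 were higher in APP_WT, a split that turned to 2114 of 5785 when arrays were centred on their median in place of loess, under which all 8 ligands were still called higher. Their log2 fold changes ran from 0.30 for Cxcl16 to 4.50 for Cxcl10 with a median of 2.33, and the median of all tested probes was 0.0042. Ccl3, Ccl4, Ccl5 and Ccl12 passed the intensity filter on these arrays only through the transgenic channel, and Cxcl16 only through the arrays of the treated groups, so the 8 are not all ligands and a gene dim in WT had to differ to be counted. In whole cultures a higher number of cells of a type and more RNA per cell cannot be told apart.

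Cxcl10, an interferon-induced ligand of Cxcr3, had the largest fitted difference of the ligands, an order that held with offset 10 and turned in other values of the same arrays (5.42 for Ccl4 and 4.99 for Cxcl10 with the scanner's processed signals, 5.25 and 4.94 in the deposited table). Its level was 8.50, 8.22, 7.92 and 8.10 in WT and 12.55, 12.78, 12.39 and 13.00 in APP_WT on arrays 1 to 4. The groups lay far apart on every array. Its log2 ratios were 4.05, 4.56, 4.47 and 4.90, which gave a 22.6-fold difference (log2 fold change 4.50 ± 0.12 SE, n = 4, limma adjusted p = 1.8e-08). It was well above background in all 4 WT channels too. Cxcl9, the neighboring interferon-induced ligand of Cxcr3, was not well above background in any channel of any array with either probe. Its log2 ratios against WT were 0.30, −0.07, 0.0038 and −0.03 with the brighter probe, on both sides of 0, and it was not tested.

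The ligands of Cxcr2, which attract neutrophils, were represented by Cxcl5 and Cxcl1. Cxcl5 was at 7.88, 7.87, 7.58 and 7.75 in WT and at 9.82, 10.04, 10.33 and 10.94 in APP_WT, well above background in all 8 channels. The groups did not overlap, and the spread among APP_WT preparations (SD 0.48) exceeded that among WT preparations (SD 0.14). Its log2 ratios of 1.94, 2.17, 2.75 and 3.19 corresponded to a 5.71-fold higher level in APP_WT (log2 fold change 2.51 ± 0.10 SE, n = 4, limma adjusted p = 1.78e-07). Cxcl1 was well above background in 1 of 4 APP_WT channels and in no WT channel. Its ratios were above 0 on all 4 arrays (0.28, 0.17, 0.39 and 0.81), as in 15.1% of tested probes. It did not pass the filter. With all 55681 probes tested, of which 7.61% were called, Cxcl1 had a log2 fold change of 0.42 (limma adjusted p = 0.0101).

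Cxcl16, a membrane-bound ligand of Cxcr6, differed least. Its level was 6.47, 6.46, 6.62 and 6.82 in WT and 6.58, 6.85, 7.05 and 7.09 in APP_WT. The groups overlapped, and only 1 WT and 2 APP_WT channels were well above background. Its ratios of 0.11, 0.40, 0.43 and 0.27 gave a log2 fold change of 0.30 ± 0.07 SE (n = 4, limma adjusted p = 0.0119). This call was lost in a model of these 4 arrays alone (limma adjusted p = 0.0682), without array 2 (0.0806), without array 3 (0.0767) and under SAM and rank products.

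Ccl2 and Ccl12 are ligands of Ccr2, the receptor of inflammatory monocytes. Ccl2 was at 7.85, 7.71, 7.36 and 7.74 in WT and at 10.01, 9.84, 9.80 and 10.61 in APP_WT, and its groups did not overlap. Over the 10 spots of its probe the log2 ratio averaged 2.16, 2.13, 2.44 and 2.87, a 5.28-fold difference (log2 fold change 2.40 ± 0.10 SE, n = 4, limma adjusted p = 1.93e-07). Ccl12 was much closer to background, well above it in 1 WT and 3 APP_WT channels. Its level was 5.67, 6.02, 6.26 and 6.13 in WT against 6.40, 6.56, 6.83 and 7.10 in APP_WT, without overlap. The ratios of Ccl12 were 0.73, 0.54, 0.57 and 0.97 (log2 fold change 0.70 ± 0.10 SE, n = 4, limma adjusted p = 6.63e-04).

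Ccl3 and Ccl5 are ligands of Ccr1, and Ccl4 is a macrophage inflammatory protein closely related to Ccl3. Ccl3 was at 6.65, 6.60, 6.70 and 7.11 in WT, well above background in 2 channels, and at 8.53, 8.80, 9.12 and 9.65 in APP_WT. Its ratios were 1.88, 2.20, 2.42 and 2.53, a 4.78-fold difference (log2 fold change 2.26 ± 0.09 SE, n = 4, limma adjusted p = 1.46e-07). The groups of Ccl3 did not overlap. Ccl4 was not well above background in any WT channel and so has only a bound there. Its ratios were 2.35, 2.25, 2.51 and 2.71, and its level was at least 5.49-fold higher in APP_WT, a bound set on each array against the higher of the dimmest detected signal and its own (measured means 8.68 and 6.22, log2 fold change 2.46 ± 0.10 SE, n = 4, limma adjusted p = 1.46e-07). Ccl5, detected in 1 WT channel, had ratios of 2.27, 1.84, 1.99 and 2.49, a 4.43-fold difference (log2 fold change 2.15 ± 0.12 SE, n = 4, limma adjusted p = 1.29e-06). For these adjacent or nearby CC genes on chromosome 11, the 12 ratios all lay between 1.84 and 2.71. The offset compresses ratios of dim probes, and with the processed signals of the scanner software the log2 fold change was 3.66 for Ccl3, 5.42 for Ccl4, 4.05 for Ccl5, 2.33 for Ccl12 and 0.94 for Cxcl16, each still called higher.

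SAM and rank products, the tests named in the methods, both at an unadjusted p of at most 0.05, called 7 of the 8 ligands higher, all but Cxcl16, where 5.97% of tested probes were called higher. The ratio of 7 of these 8 ligands was highest on array 4, Cxcl16 being the exception, and the APP_WT channel of array 4 had the highest level of the 4 preparations for all 8. Neither was counted over all tested probes, so no trait of the ligands can be read from the order of the arrays.

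**Figure D2:**
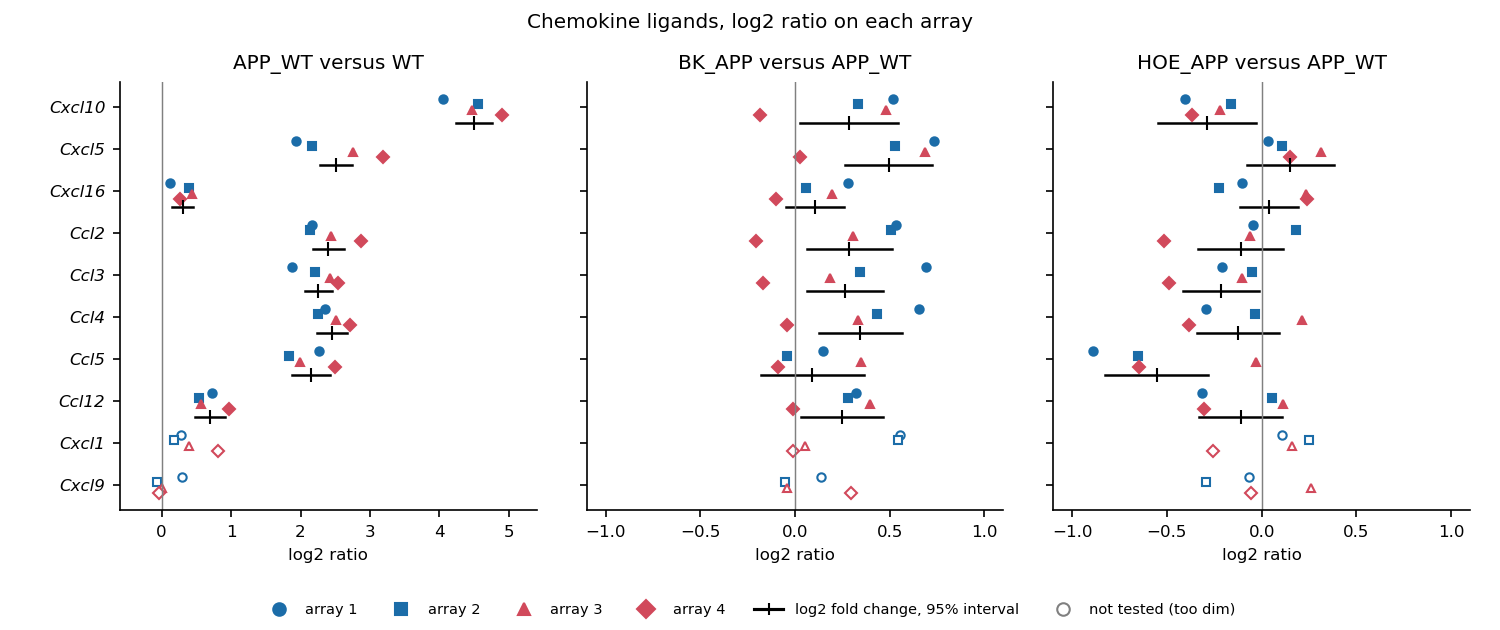
Log2 ratio of 10 chemokine ligands on each of 4 arrays in the 3 comparisons (horizontal axis; the first panel has a wider scale), blue and red marking the 2 dye orientations, black bars the log2 fold change with its 95% interval and open symbols genes too dim to be tested. In APP_WT versus WT the fold changes of the tested ligands lie between 0.30 and 4.50, while in the treated groups they lie between −0.55 and 0.49 and array 4 of BK_APP sits lowest of the 4 for all 8.

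Markers of microglia moved with this comparison. Of 15 microglia markers tested, 14 were higher in APP_WT (limma, adjusted p below 0.05), against 11.5% of all tested probes, and the list median was 1.39. The summed level of the list on the linear scale ran from 10030 to 12641 in WT and from 14456 to 18628 in APP_WT. Such a sum, here and below, weights the brightest probes most. Several markers passed the filter on these arrays only through the transgenic channel, so the filter favored markers higher there. Adgre1 and Laptm5 were not well above background in any WT channel. Of 10 astrocyte markers 7 were called higher (list median 0.28), and of 3 blood leukocyte markers tested 1 was (list median 0.08), with S100a8, S100a9 and Ngp below the filter. The part of these cell types in the ligand differences was not tested. A probe for App, the gene of the transgene named above, had ratios of 0.23, 0.27, 3.9e-04 and −0.03 (limma adjusted p = 0.0925), and whether it reads the transgene is not known, so it does not check the labels.

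Beyond the 10 genes, 26 of 31 other chemokine ligands had a probe matched by RefSeq name and 11 were tested, of which 4 were higher in APP_WT, none lower, and 7 not called (list median 0.11). Cx3cl1, the neuronal ligand of Cx3cr1, had ratios of 0.81, 1.23, 0.99 and 0.74 (log2 fold change 0.94 ± 0.08 SE, n = 4, limma adjusted p = 2.83e-05) and was detected in all 8 channels. Ccl7, a ligand of Ccr2 encoded between Ccl2 and Ccl12, had a log2 fold change of 0.62 but was detected in 1 APP_WT and no WT channel. The remaining calls were Cxcl14 (0.50) and Ccl9 (0.55). Ccl9 was detected in 3 APP_WT channels and no WT channel, so it passed the filter on these arrays only through APP_WT. All 4 values were smaller than those of the tested ligands among the 10 other than Ccl12 and Cxcl16.

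The receptors showed another picture. Of 24 chemokine receptors with a probe 5 were tested, and 2 were higher in APP_WT: Cx3cr1, a marker of microglia, with ratios of 2.30, 2.30, 2.50 and 2.15 (log2 fold change 2.31 ± 0.07 SE, n = 4, limma adjusted p = 2.44e-08), and Ackr3, a scavenging receptor, with a log2 fold change of 0.35. Receptors through which these ligands are known to act were at or near background. Ccr1, Cxcr2 and Cxcr3 were not well above background in any of the 24 channels, Ccr2 in 3, and Cxcr6 in 4 and 3 with its 2 probes. None of these 5 passed the filter, and their mean ratios against WT lay between −0.09 and 0.07.

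**Figure D3:**
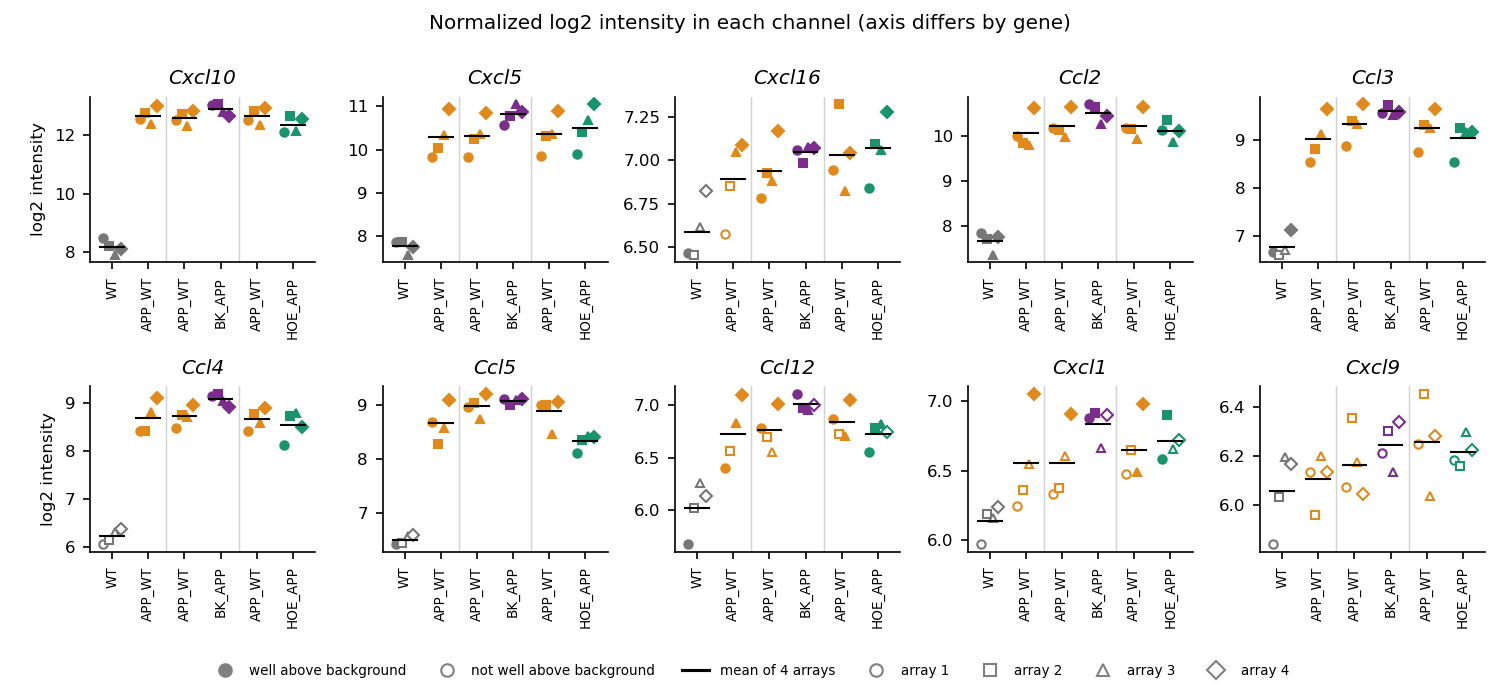
Normalized log2 intensity (vertical axis, its scale differing by gene) of 10 chemokine ligands in both channels of the 3 comparisons, with a symbol per array, a line at the mean of 4 arrays and open symbols for channels not well above background. WT lies lowest for Cxcl10, Cxcl5 and the CC ligands, and the symbols of array 4 are highest in the APP_WT columns of all 8 tested ligands, except Cxcl16 beside HOE_APP.

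The next comparison asked whether bradykinin changed the ligands in transgenic neurospheres. No ligand was called (limma adjusted p of at least 0.966 for all 8), and 0% of all tested probes were. The 8 log2 fold changes were all positive, from 0.09 for Ccl5 to 0.49 for Cxcl5, with a median of 0.27 against −0.0047 over all tested probes. A positive value was found for 47.4% of all tested probes. At an unadjusted p below 0.05, 6 of 8 ligands were higher, all but Cxcl16 and Ccl5, against 2.08% of all tested probes. With the dye effect left out of the model, Ccl2 (limma unadjusted p = 0.0597) and Ccl3 (0.0529) did not reach this threshold. The ligands were chosen with earlier results of these data known. Their shares beside those of all tested probes, in each comparison, are therefore a description and not a test.

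Cxcl5 had the largest value. Its level was 9.83, 10.25, 10.36 and 10.84 in APP_WT and 10.57, 10.78, 11.05 and 10.87 in BK_APP, with overlapping ranges. The ratios of 0.74, 0.53, 0.69 and 0.02 were above 0 on all 4 arrays, as in 5.09% of tested probes, but close to 0 on array 4 (log2 fold change 0.49 ± 0.10 SE, 95% interval 0.26 to 0.72, n = 4, limma unadjusted p = 6.72e-04, adjusted p = 0.966). Ccl4 had ratios of 0.66, 0.43, 0.33 and −0.04 (log2 fold change 0.35 ± 0.10 SE) and Cxcl10 of 0.52, 0.33, 0.48 and −0.18 (0.29 ± 0.12 SE). Both were higher with bradykinin on 3 of 4 arrays. Ccl2 (0.29), Ccl3 (0.26), Ccl12 (0.25) and Cxcl16 (0.11) shared this pattern of 3 positive arrays. Ccl5 was above 0 on 2 of 4 arrays (0.15, −0.04, 0.35 and −0.09).

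SAM and rank products called Cxcl5, Cxcl10, Ccl4 and Ccl12 higher in BK_APP, 4 of 8 ligands against 0.903% of tested probes. On array 4, 1 of 8 ligands, Cxcl5, was above 0, and the median ratio of the ligands was −0.09 there against 0.53, 0.34 and 0.34 on arrays 1 to 3. On this array the APP_WT channel had the highest level of the 4 preparations for all 8 ligands. Across the 4 arrays the BK_APP channel varied less than the APP_WT channel for all 8 (median SD 0.11 and 0.21). In HOE_APP this held for 5 of 8 (0.24 and 0.27). Neither the array of the highest level nor the spread was counted over all tested probes, so no trait of the ligands can be read from them. Cxcl1, below the filter, had ratios of 0.55, 0.54, 0.06 and −0.0086 in BK_APP. Of 15 microglia markers, none of them called, 11 had a positive value (list median 0.15), and their summed level ran from 15735 to 17610 in BK_APP and from 14028 to 17934 in APP_WT. Negative values were found for 8 of 10 astrocyte markers (list median −0.05) and 10 of 10 neuron markers (list median −0.10), none called. The part of these cells was not tested.

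The last comparison asked the same of HOE-140, with the likely direction named above. No ligand was called (limma adjusted p of at least 0.926), and 0% of all tested probes were. Of the 8 ligands 6 had a negative and 2 a positive log2 fold change, from −0.55 for Ccl5 to 0.15 for Cxcl5, with a median of −0.12 against 2.9e-04 over all tested probes, of which 50.1% were positive. At an unadjusted p below 0.05, Ccl5, Cxcl10 and Ccl3 were lower, 3 of 8 against 2.71% of all tested probes. Ccl3 did not reach this threshold with the dye effect left out of the model (limma unadjusted p = 0.108).

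Ccl5, a chemoattractant of T cells and monocytes, had the largest value. Its level was 9.001, 8.995, 8.45 and 9.05 in APP_WT and 8.11, 8.34, 8.42 and 8.40 in HOE_APP, without overlap. The ratios were −0.89, −0.65, −0.03 and −0.65, so that the difference was near 0 on array 3, where APP_WT was lowest (log2 fold change −0.55 ± 0.12 SE, 95% interval −0.83 to −0.28, n = 4, limma unadjusted p = 9.5e-04, adjusted p = 0.926). With the replicate number as a block within the 8 arrays of the treated groups, Ccl5 passed (limma adjusted p = 0.0460, and from 0.0460 to 1.00 over all settings) among 25 of 29361 probes, or 0.0851%. This fit was chosen after seeing the data. With the block over all 12 arrays Ccl5 was not called. That block gave same-numbered arrays a shift of the same sign in every comparison, while APP_WT versus WT deviated opposite to the others. It therefore cannot decide on this call.

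Cxcl10 was below 0 on all 4 arrays (−0.41, −0.16, −0.22 and −0.37, log2 fold change −0.29 ± 0.12 SE). Ccl3 was below 0 on all 4 as well (−0.21, −0.05, −0.10 and −0.49, log2 fold change −0.21 ± 0.09 SE). The share of tested probes below 0 on all 4 arrays was 5%. SAM and rank products called these genes, Ccl5, Cxcl10 and Ccl3, lower, against 1.12% of tested probes. Cxcl5, in contrast, was above 0 on all 4 arrays (0.04, 0.11, 0.31 and 0.15), as were 5.7% of tested probes. Ccl4 (−0.12), Ccl2 (−0.11), Ccl12 (−0.11) and Cxcl16 (0.04) had ratios on both sides of 0. Of the 15 microglia markers none was called and none had a positive value (list median −0.08), with a summed level of 11967 to 16128 in HOE_APP and of 13682 to 18303 in APP_WT. Negative values were also found for 9 of 10 astrocyte markers (list median −0.09) and 7 of 10 neuron markers (list median −0.02), none called. The part of these cells in the HOE_APP values was not tested.

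Bradykinin and HOE-140 are ligands of the same receptor with opposite action and were given at the same dose and times, so their effects were compared directly, as 1 pair for each of the 8 genes. Both comparisons have APP_WT as their second group. Same-numbered arrays of the 2 comparisons deviated together, less so within 1 dye orientation (r of 0.410 and 0.425). BK_APP exceeded HOE_APP for all 8 ligands, from 0.07 for Cxcl16 to 0.65 for Ccl5 on the log2 scale with a median of 0.43, where 48.6% of all tested probes were positive and the median was −0.0025. None of the 8 differences passed the test (limma adjusted p = 1.00 for each), and 0% of all tested probes did. At an unadjusted p below 0.05, 7 of 8 were higher in BK_APP, all but Cxcl16, against 1.18% of tested probes. Cxcl5 (limma unadjusted p = 0.154) and Ccl2 (0.0646) did not reach this threshold with the dye effect left out of the model.

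For Ccl5 the 4 differences of same-numbered arrays were 1.04, 0.61, 0.38 and 0.56, and the estimate was 0.65 (95% interval 0.26 to 1.03). The intervals and limma p-values of these differences come from the model that treats the arrays as independent. They do not use the pairing by number and do not measure the spread of the paired differences. For Cxcl10 they were 0.92, 0.50, 0.70 and 0.19, with an estimate of 0.58 (0.21 to 0.94). The difference was above 0 for all 4 numbers in Cxcl10, Ccl2, Ccl3, Ccl4, Ccl5 and Ccl12, 6 of 8 ligands, which 8.52% of tested probes showed. Cxcl5 was below 0 for number 4 (−0.13) and Cxcl16 for numbers 3 and 4 (−0.04 and −0.34). Ccl3 had an estimate of 0.48 (0.20 to 0.76), Ccl4 of 0.47 (0.16 to 0.78), Ccl2 of 0.40 (0.08 to 0.71), Ccl12 of 0.36 (0.05 to 0.67) and Cxcl5 of 0.34 (0.02 to 0.67). The interval of Cxcl16 (−0.14 to 0.29) held 0. SAM and rank products on the same-number differences called 7 of the 8 ligands, all but Cxcl16, against 2.48% of tested probes. If the sign of the HOE_APP arrays were turned, the estimate would be −0.0020 for Cxcl10 and −0.46 for Ccl5.

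**Figure D4:**
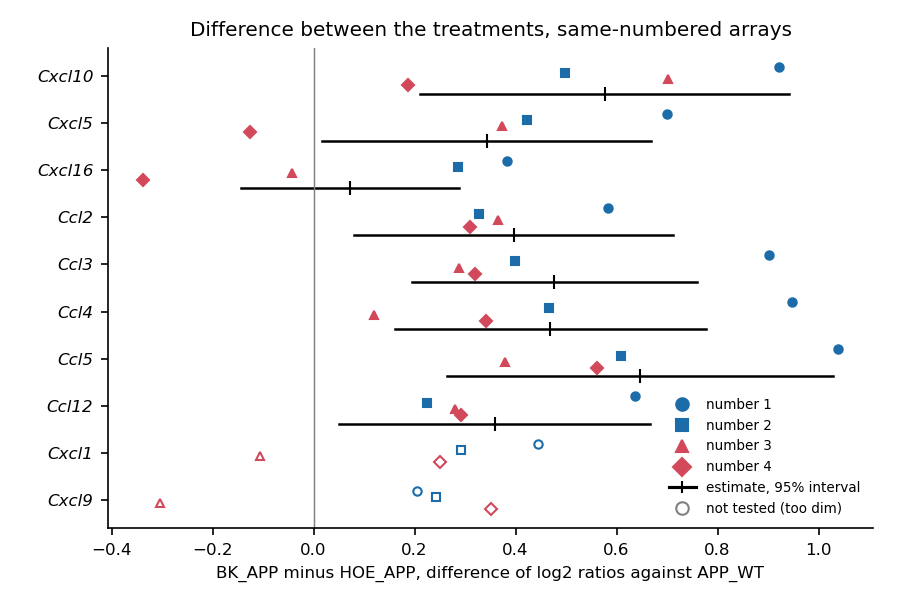
Difference between BK_APP and HOE_APP in the log2 ratio against APP_WT (horizontal axis), with a symbol for each pair of same-numbered arrays and open symbols for genes not tested. Black bars are the estimate and its 95% interval from the model that does not use this pairing. All 4 differences are above 0 for Cxcl10, Ccl2, Ccl3, Ccl4, Ccl5 and Ccl12, and the interval of Cxcl16 spans 0.

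By level, over all channels that carried a group, Cxcl10 ranged from 7.92 to 8.50 in WT, from 12.12 to 12.68 in HOE_APP, from 12.34 to 13.00 in the 12 APP_WT channels and from 12.67 to 13.07 in BK_APP. Only WT stood apart, and the neighbors in the rest of that order overlapped. Ccl5 ranged from 6.42 to 6.60 in WT, from 8.11 to 8.42 in HOE_APP, from 8.28 to 9.20 in APP_WT and from 8.99 to 9.11 in BK_APP. Here too each transgenic group overlapped APP_WT, while HOE_APP lay below BK_APP. With the channels of HOE_APP turned, its levels would be those given above for APP_WT on these arrays, 8.45 to 9.05, which overlap BK_APP.

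**Figure D5:**
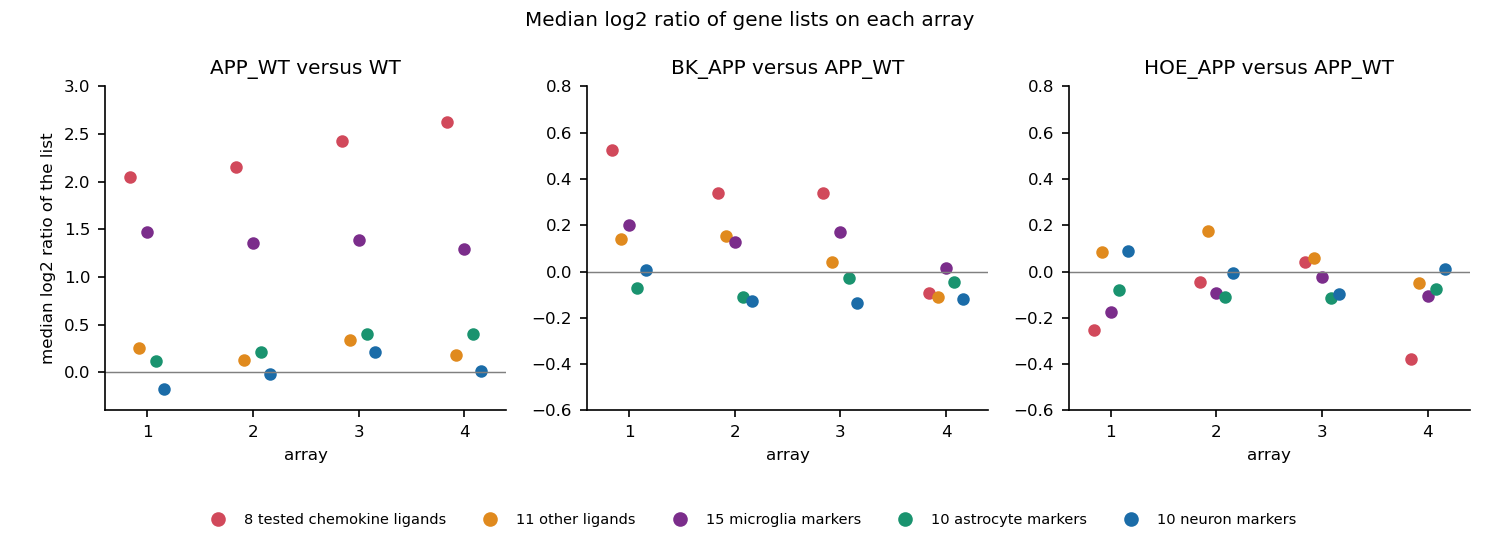
Median log2 ratio (vertical axis) of 8 tested chemokine ligands and of 4 other gene lists on each array of the 3 comparisons, the first panel having a wider scale. In APP_WT versus WT the ligand median lies between 2.05 and 2.62, above that of the microglia markers (1.29 to 1.47); in BK_APP it falls to −0.09 on array 4.

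By the median ratio of the tested ligands, the 12 arrays fall into 2 groups. This median lay between 2.05 and 2.62 in APP_WT versus WT and between −0.38 and 0.53 in the treated groups. Ranked by Pearson's r over all 12 arrays with the median ratio of the tested ligands, the 5 genes outside the ligands that came first were Ifi27, Cd52, Gbp3, Gbp2 and Aif1 (r from 0.995 to 0.997), and 208 of 14330 genes exceeded 0.95. Ifi27, Gbp2 and Gbp3 are interferon-induced genes, Aif1 marks microglia, and Cd52 is a leukocyte surface antigen. Within the 8 arrays of the treated groups their r was 0.987 for Ifi27, 0.959 for Cd52, 0.942 for Gbp3, 0.936 for Aif1 and 0.926 for Gbp2. Among the ligands themselves over these 8 arrays, the adjacent Ccl3 and Ccl4 had an r of 0.944, Cxcl10 and Cxcl5 of 0.937, and Cxcl16 and Ccl2 of 0.07. These points share arrays, and arrays of 1 comparison share a slide, so the values describe likeness only.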

How the data were processed

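Expression was measured on 12 two-color Agilent SurePrint G3 mouse arrays, 4 for each comparison. The deposited scanner files hold spot and local background intensity in each channel, made with Feature Extraction 11.0.1.1 per the file headers, without normalization, and also processed signals that the software background-subtracted and dye-normalized, and a log10 ratio used here to check the sign. The deposited table of log2 ratios matched that ratio once turned and put on the log2 scale (column medians from −0.155 to 0.036, with no centring) and served as an alternative.

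Median signals were background-corrected with normexp (offset 50) and loess-normalized (span 0.3) in limma 3.58.1 under R 4.3.3. Control spots were dropped, uneven spots had no weight in the loess, spots of a probe were averaged, and ratios were turned so that the group named first is the numerator. A probe was named by its RefSeq identifier (27509 of 55681 probes), and for a gene outside the ligands with several probes the brightest tested one was used. Channel levels come from loess followed by Aquantile. Probes well above background in 1 group on at least 3 of 4 arrays of a comparison were tested (29361). One limma model over the 12 arrays fitted, per comparison, the mean ratio and the dye effect (6 residual degrees of freedom, two-sided, Benjamini-Hochberg adjustment over all tested probes, threshold 0.05). SAM used all 16 sign changes and rank products 100 permutations. The model and both other tests were run on simulated data with independent noise on each array. Such data lack the correlation between same-numbered arrays and so cannot show its effect on these tests. The number of arrays limits the precision. SEs and limma p-values rest on the spread within a dye orientation, pooled over the 3 comparisons and drawn toward a value common to all probes. A difference between arrays 1 and 2 and arrays 3 and 4 does not enter them. For Cxcl5 in APP_WT versus WT the SD over the 4 arrays was 0.56, while the SE was 0.10.

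Named genes were the 10 ligands, those of the other ligands and receptors called in APP_WT versus WT, receptors of the ligands, the 5 genes most like the ligands, and App. The ligands and lists were chosen with earlier results of these data known. Same replicate numbers of BK_APP and HOE_APP deviated together (r from 0.507 to 0.666 over 29361 probes), so they were taken to pair these comparisons. Those of APP_WT versus WT ran opposite to both (r from −0.597 to −0.293). BK_APP and HOE_APP share the dye layout by number and APP_WT versus WT has the reverse, so dye effects enter these values. Differences between arrays of 1 orientation had r of 0.410 and 0.425 for BK_APP with HOE_APP. With APP_WT versus WT they ran from −0.501 to −0.200. Ratios of dye-swapped arrays correlated negatively within BK_APP (−0.315 to −0.114) and HOE_APP (−0.317 to −0.190). The labels do not say whether same-numbered arrays carried the same APP_WT extract. Array probe sequences were not used here, so that cross-hybridization between similar ligands was not tested. Alternatives are listed with their effects at the end. Motifs were searched with Python 3.11.15. Some items are not reported here.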

Additional observations from a re-analysis of the deposited data

How the results depend on the processing

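Across the settings tried, the 8 ligands called in APP_WT versus WT numbered between 7 and 9, the call of Cxcl16 being the one lost and that of Cxcl1 the one gained without the filter. Ccl12 with the filter at all 4 arrays and Cxcl16 in the deposited table could not be fitted. Over all probes 5432 were called, against 2335 in a model of these 4 arrays alone and 2737 by SAM and rank products. The median log2 fold change of the tested ligands was 2.33, and 2.80 with offset 10, 3.35 with the processed signals and 3.48 in the deposited table. Without 1 replicate it lay between 2.26 and 2.40. SAM and rank products called 4 ligands in BK_APP, 3 in HOE_APP and 7 in BK_APP minus HOE_APP, where limma called 0. Without 1 replicate the medians ranged from 0.15 (without array 3) to 0.38 (without array 4) in BK_APP, from −0.25 (without array 3) to −0.0016 (without array 4) in HOE_APP, and from 0.31 to 0.54 for their difference, with 0 called. With HOE_APP turned in sign, the median difference was 0.14, and Cxcl10 (−0.0020) and Ccl5 (−0.46) changed sign. In HOE_APP, Cxcl16 changed sign with the processed signals (−0.066) and in the deposited table (−0.061), and Ccl2 with median centring (0.0023). Without 1 replicate of HOE_APP, Ccl2 ranged from −0.22 to 0.0040 and Ccl4 from −0.27 to 0.025 there, both positive without array 4. Without 1 replicate of BK_APP, Ccl5 ranged from −0.018 (without array 3) to 0.20, and Cxcl16 in the difference fell to −9.9e-04 without array 3. The causes were not tested. A separate model for each comparison has no value for the difference of the treated groups.

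The replicate block over 12 arrays called 8 ligands in APP_WT versus WT and 0 elsewhere. It gave every comparison a shift of the same sign by number, though APP_WT versus WT deviated opposite to the others. Its result therefore does not test the pairing. The block within the 8 arrays of the treated groups, chosen after seeing the data, called 1 ligand, Ccl5, in HOE_APP (adjusted p = 0.0460) and 0 in the others, so the pairing changed no other call.

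Signal over background limits Cxcl9, Cxcl1, Ccl12, Cxcl16, Ccl4 and Ccl5, whose WT channels were mostly not well above background, and ratios of dim probes are compressed by the offset.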

Other observations

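The APP_WT channels of like number were close across the 3 comparisons for Cxcl10 and Cxcl5, but not for every ligand. For Cxcl10 the APP_WT channel of numbers 1 to 4 was at 12.55, 12.78, 12.39 and 13.00 beside WT, at 12.53, 12.74, 12.34 and 12.86 beside BK_APP, and at 12.52, 12.84, 12.36 and 12.93 beside HOE_APP. For Cxcl5 it was at 9.82, 10.04, 10.33 and 10.94 beside WT, at 9.83, 10.25, 10.36 and 10.84 beside BK_APP, and at 9.86, 10.30, 10.36 and 10.89 beside HOE_APP. Number 4 was highest each time. For Ccl5 number 2 was at 8.28 beside WT, the lowest of the 4, but at 9.03 beside BK_APP and 8.995 beside HOE_APP, and for Ccl3 it was at 8.80, 9.39 and 9.31. Whether an extract was used again was not stated in the labels and was not tested.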
